A study of Mus musculus with 24 samples.

Results

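Mouse eggs labelled as Btg4 knockout (Btg4-/-) were compared between metaphase of the second meiotic division (MII) and the first division (MI), with 2 libraries at each stage. Levels are in FPKM, fragments per kilobase of transcript, by name scaled to the mapped fragments of the library. How the deposited values were scaled between libraries is not described in the sources used. Every gene with a mean of at least 1 FPKM in either group was taken, which gave 9820 of the 23235 genes listed. Of these, 6970 reached 1 FPKM at both stages, 2821 at MI only and 29 at MII only, so the 2821 were bound to be lower at MII. Just inside the minimum lay Suv420h2, Rpp40 and Parp4 with 1.0 FPKM in the higher group, and just outside it lay Ccl4 and Syde1 with 0.995. The oocytes came from C57BL/6 Btg4-/- mice of postnatal day 21 and were cultured for 8 h to reach MI or 16 h to reach MII. WT and Cnot6l-/- mice of the same strain and age gave the MI and MII libraries used for comparison, 2 in each group. Oocytes at the germinal vesicle stage (GV), collected 48 h after PMSG, a gonadotrophin given to stimulate the follicles, gave the starting level with 2 libraries per genotype. The labels do not describe either knockout allele, do not tie replicates to animals, and give 100 oocytes per library in the extraction text but 2 in the text on the series. The p-values therefore measure only the spread between replicate libraries, which may be technical. That spread was estimated over all 24 libraries of the series, which include zygotes taken 24 h after the hormone hCG.

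A growing oocyte stores maternal mRNA, stops transcription before the nucleus breaks down, and then removes much of this store while it completes meiosis. Removal begins with the shortening of poly(A) tails by the deadenylases of the CCR4-NOT complex. BTG4 is an adaptor of the BTG/Tob family, made from an mRNA that is itself translated during maturation. It brings CCR4-NOT to mRNA, and Btg4-/- females are known to ovulate eggs that keep maternal transcripts and to be infertile. CNOT6L is a deadenylase of the same complex.

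The libraries held oocyte RNA. All 8 oocyte markers checked, among them Zp3, which encodes a zona pellucida glycoprotein, and Gdf9, an oocyte growth factor, were at 1 FPKM or more in all 4 libraries. Their levels summed to 6090 and 6220 FPKM at MI and 2260 and 1810 at MII. The 12 cumulus and granulosa markers summed to 11.3 and 14.6 FPKM at MI and 6.05 and 3.6 at MII, with Foxl2 and Tnfaip6 at 0 in all 4 libraries. The 5 blood markers summed to 1.49, 1.36, 2.42 and 0.42, with Hba-a1 and Hbb-b1 at 0. The Btg4 transcript (chromosome 9, plus strand) measured 1463.93 and 1613.02 FPKM in the MI libraries and 1493.68 and 1111.11 in the MII libraries of the knockout, against 1199.38 and 894.19 at MI and 956.73 and 1113.54 at MII in WT. The transcript was thus present in the libraries labelled Btg4-/-, and without a description of the allele its level checks nothing about the label. The MII libraries differed more from each other (Pearson r across genes 0.961, sums 1.385-fold apart) than the MI libraries (r 0.986, sums 0.943-fold apart).

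In the values as deposited, the summed signal fell steeply between MI and MII in the libraries labelled Btg4-/-. FPKM summed over all genes measured 366500 and 388589 in the MI libraries and 194890 and 140755 in the MII libraries, so the mean went from 377544 ± 15620 to 167822 ± 38279 (SD, n = 2), and 44.5% of the MI sum was left. The sums of the MI and MII libraries did not overlap. WT eggs kept 62.2% of their MI sum over the same step and Cnot6l-/- eggs 63.1%. In the step before, from GV to MI, Btg4-/- lost least, with 78.0% of the sum left in Btg4-/-, 62.5% in Cnot6l-/- and 32.0% in WT. Such sums follow the RNA content only if the scaling between libraries kept it, and that scaling is not described. In bulk libraries such as these, fewer oocytes and less RNA per oocyte cannot be told apart. The libraries were also made with Smart-Seq2, which primes cDNA on poly(A) tails, so loss of an mRNA and loss of its tail cannot be told apart either.

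Gene by gene, the change was a broad fall with a long tail. Changes are given as differences of log2(FPKM + 1), MII minus MI, ± SE, with p-values from limma adjusted by Benjamini-Hochberg over all 10884 genes fitted. A gene is said to have fallen or risen only where the adjusted p was under 0.05. By this rule 7120 of the 9820 genes fell and 12 rose, beside 69.3% and 0.11% of all 10884 genes. The median change was -1.10, and -1.0 over all genes fitted. The change was -1 or less for 5419 genes (55.2%), -2 or less for 1884, -3 or less for 619 and -4 or less for 143, while 545 (5.55%) moved by less than 0.25. Both MII libraries lay under both MI libraries for 8558 genes (87.1%, beside 84.9% of all genes fitted) and over them for 45 (0.458%, beside 0.551%). In WT the same genes had a median change of -0.50, with 3505 falling and 29 rising (32.6% and 0.34% of all genes), and in Cnot6l-/- a median of -0.81, with 5518 falling and 11 rising (54.3% and 0.23%).

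**Figure D1:**
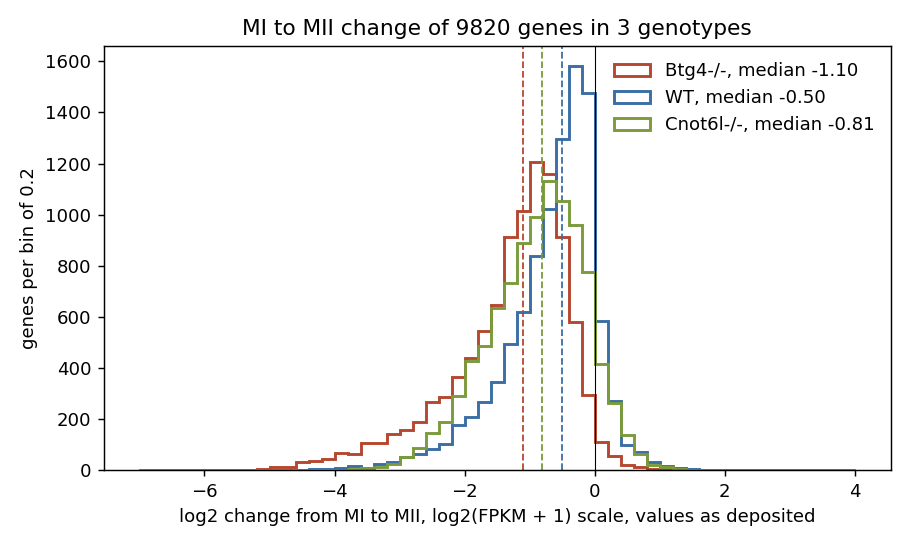
Distribution of the log2 change from MI to MII of the 9820 genes in Btg4-/-, WT and Cnot6l-/- eggs; x axis, log2 change of FPKM + 1 as deposited, y axis, genes per bin of 0.2, dashed lines at the medians. The Btg4-/- curve has its median at -1.10, against -0.50 in WT and -0.81 in Cnot6l-/-, and it reaches further into falls of 3 and more.

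The sources used here do not say how the libraries were scaled to each other, and the size of the fall depends on it. Median-ratio scaling, which sets each library level on the 3677 genes above 1 FPKM in all 24 libraries, moved the median over all genes from -1.0 to -0.21. After it 3175 of the 9820 genes were called lower and 501 higher (30.0% and 4.72% of all genes), with a median of -0.25. All 3175 were among the 7120. In WT the scaled counts were 2425 and 515 (22.8% and 5.02% of all genes) and in Cnot6l-/- 2690 and 594 (26.2% and 5.81%). A gene called higher after scaling fell less than the reference genes, and need not have risen in the deposited values. Scaled values are given below for the Btg4-/- changes of the gene lists, and for genes whose call they change. A gene whose Btg4-/- change is given without one was called, or not called, both ways.

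A set of genes is lost earlier in WT oocytes, between GV and MI, and most of it fell from MI to MII in Btg4-/-. In the values as deposited, the share of the set that fell was little above that of the 9820 genes. After scaling the difference between these shares was larger. Of the 9820, 4921 fell by at least 1 on the log2 scale from GV to MI in WT. The fall was judged on the WT libraries, but only genes that reached 1 FPKM in Btg4-/- at MI or MII could enter the set. Their median level went from 17.04 and 13.69 FPKM at GV to 2.87 and 2.35 at MI in WT, and on to 1.0 and 0.91 at MII. In Btg4-/- it was 15.38 and 16.64 FPKM at GV and still 13.57 and 14.35 at MI, then 3.89 and 2.85 at MII. WT was thus low by MI, whereas Btg4-/- was low only at MII, and the medians of the Btg4-/- MII libraries overlapped those of the WT MI libraries. As changes, the medians of this set were -1.84 from GV to MI in WT, -0.24 from GV to MI in Btg4-/- and -1.44 from MI to MII in Btg4-/-. Between GV and MI 74 of the 4921 fell in Btg4-/-, and between MI and MII 3699 fell. The latter were 75.2%, beside 72.5% of the 9820 genes and 69.3% of all genes. These steps share the Btg4-/- MI libraries, so they are not independent of each other. Over all 9820 genes, 6488 fell and 73 rose from GV to MI in WT (65.1% and 0.753% of all genes), and 81 fell and 42 rose in Btg4-/- (1.26% and 0.404%). After scaling these were 2994 and 1481 in WT (29.7% and 14.0%) and 30 and 17 in Btg4-/- (0.377% and 0.156%). Of the 4921 genes 2234 were then lower from MI to MII in Btg4-/- (45.4%, beside 32.3% of the 9820 genes and 30.0% of all genes). Another 340 were higher, and the median was -0.55. With the WT fall also judged after scaling the set held 2036 genes, of which 1263 were lower in that step, again beside 30.0% of all genes. The set did not account for the whole fall: of the 3950 genes that fell by 1 in neither WT step, 2567 (65.0%, below the 69.3% of all genes) fell in Btg4-/- from MI to MII, with a median of -0.82, and after scaling 668 were lower and 151 higher with a median of -0.04.

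A smaller set is lost late in WT as well. It held 949 genes that fell by at least 1 from MI to MII in WT but not from GV to MI, and 854 of them fell from MI to MII in Btg4-/- (90.0%, beside 69.3% of all genes), with a median of -1.46, against -1.45 in WT where the set was chosen. After scaling 273 were lower (28.8%, beside 30.0% of all genes) and 10 higher, with a median of -0.44. Their median level in Btg4-/- was 15.48 and 15.72 FPKM at MI and 5.29 and 4.0 at MII, and in WT 10.14 and 7.72 at MI and 2.07 and 2.12 at MII. Among the named genes Cpeb1, Pabpc1l, Tle6, Dnmt3l and Plat, described below, fell in both genotypes.

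**Figure D2:**
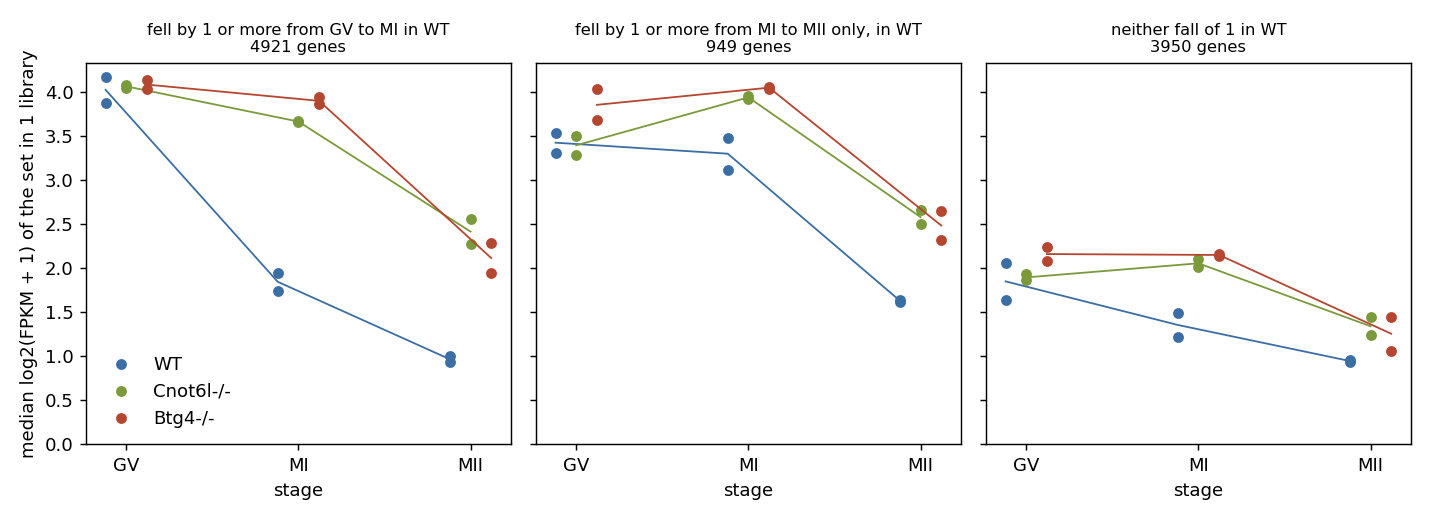
Median log2(FPKM + 1) of 3 sets of genes in each library (points) at GV, MI and MII in WT, Cnot6l-/- and Btg4-/-, with lines through the group means; the sets were defined by WT changes, among the 9820 genes that reached 1 FPKM in Btg4-/- at MI or MII. In the left panel the WT libraries are down at MI, while the Btg4-/- libraries stay near 3.9 until MI and drop to 2.29 and 1.94 at MII; in the middle panel all genotypes drop from MI to MII.

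The steepest falls were in genes of widely different function. Tubb4b, a beta tubulin, measured 642.19 and 681.26 FPKM at MI and 13.5 and 13.21 at MII in Btg4-/-, a change of -5.53 ± 0.27 (adjusted p = 5.2e-10). It stood at 47.44 and 39.25 FPKM at MI in WT, so the knockout fell from a level that WT had already left to one below that of WT MI oocytes. Sod1, the cytosolic superoxide dismutase, went from 1451.43 and 1714.68 to 46.66 and 43.58 FPKM (-5.10 ± 0.37, adjusted p = 5.9e-09). Ndufb7, a subunit of respiratory complex I, went from 101.97 and 116.92 to 2.39 and 2.53 FPKM (-4.99 ± 0.23, adjusted p = 4.6e-10), and in WT it was at 3.17 and 2.65 by MI. Uck2, a uridine-cytidine kinase, Ruvbl2, an ATPase of chromatin remodelling complexes, and Gja4, which encodes the gap junction protein connexin 37 of the oocyte surface, changed by -5.26 ± 0.40, -5.10 ± 0.37 and -5.02 ± 0.37. The replicates lay close together and far from the other stage in each of these genes. Rps27 had the largest value (-6.79 ± 1.47, adjusted p = 0.00062), but its MII libraries read 0.11 and 4.98 FPKM, so its size is the least certain. None of these genes fell from GV to MI in Btg4-/-.

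**Figure D3:**
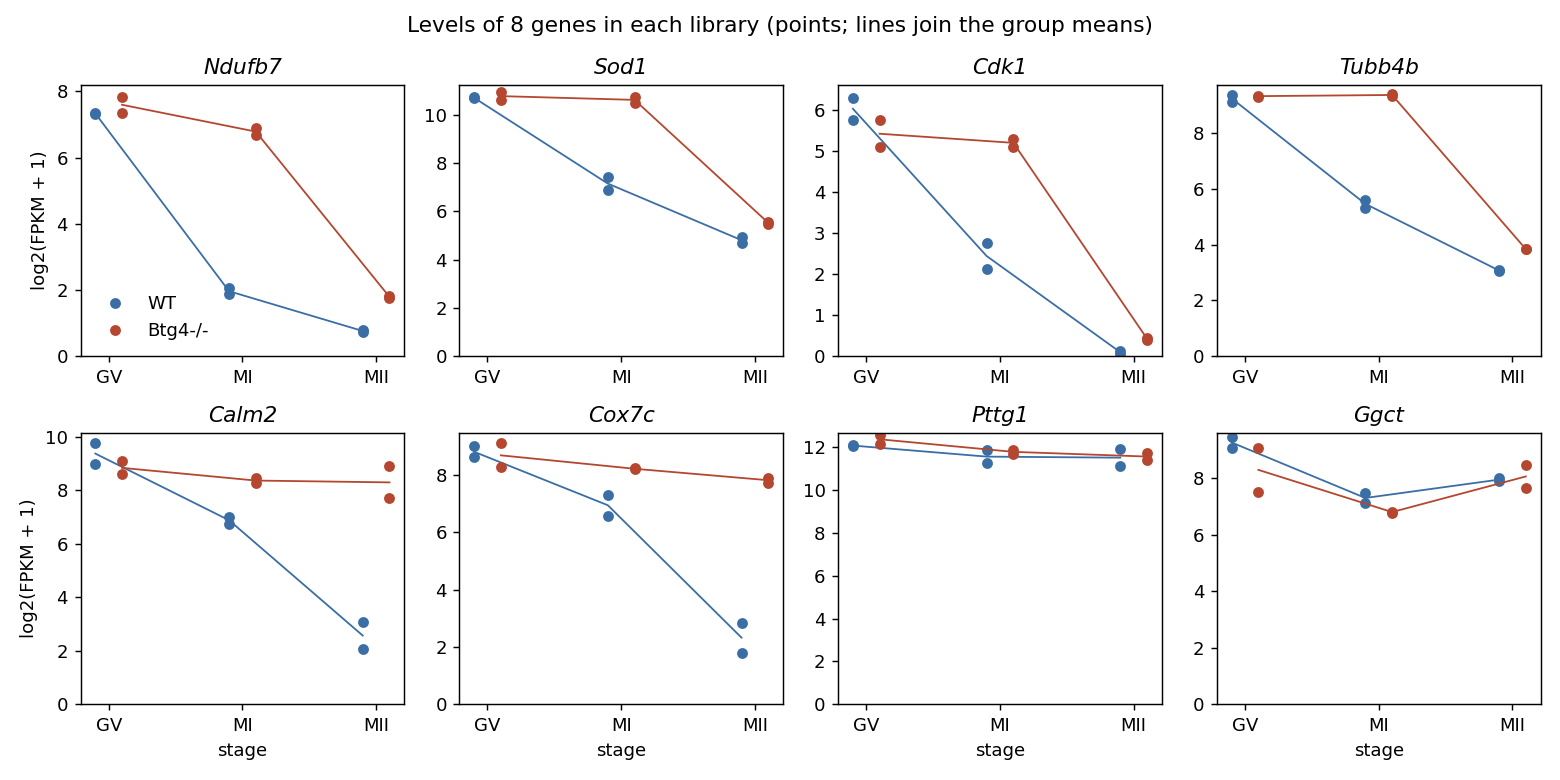
Levels of 8 genes as log2(FPKM + 1) in each library at GV, MI and MII in WT and Btg4-/-, with lines through the group means. In the top row Ndufb7, Sod1, Cdk1 and Tubb4b stay high from GV to MI in Btg4-/- and then drop; in the bottom row Calm2, Cox7c, Pttg1 and Ggct are not lower at MII in both Btg4-/- libraries by any such amount.

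Among the lists with 10 or more genes, those of cytosolic and mitochondrial ribosomal proteins had the lowest medians. Of 85 genes for cytosolic ribosomal proteins 77 fell (90.6%), with a median of -2.67, and their summed level went from 18400 and 21000 FPKM to 4420 and 4260. The direction held after scaling, with 58 lower, 2 higher and a median of -1.52. Rpl10a, a protein of the large subunit, measured 144.74 and 162.88 FPKM at MI and 2.89 and 3.45 at MII (-5.22 ± 0.40, adjusted p = 1e-08). Rpl24, also of the large subunit, went from 93.74 and 115.81 to 3.0 and 1.56 (-5.04 ± 0.34, adjusted p = 2.7e-09). Rps27l, a close relative of Rps27, did not follow, with 331.26 and 352.14 FPKM at MI and 525.58 and 322.84 at MII (0.27 ± 0.50, adjusted p = 0.63; 1.43 after scaling, adjusted p = 0.0036). Ribosomal protein genes have many processed copies in the genome, so a value for a single gene is uncertain if the counting divided reads among its copies. In WT the list had a median of -3.97 from GV to MI and -1.40 from MI to MII; in Btg4-/- it was -0.67 from GV to MI.

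Of 76 genes for mitochondrial ribosomal proteins 67 fell (88.2%), with a median of -2.11; after scaling 46 were lower and 4 higher, with a median of -1.12. Mrpl46 went from 50.72 and 54.46 to 1.27 and 0.93 FPKM (-4.68 ± 0.29, adjusted p = 1.2e-09). Mrps14, of the small mitochondrial subunit, read 17.96 and 19.48 at MI and 50.75 and 17.17 at MII, so its libraries overlapped (0.64 ± 0.71, adjusted p = 0.42; 1.73 after scaling, adjusted p = 0.031). Of 82 nuclear genes for oxidative phosphorylation 58 fell (70.7%, close to the 69.3% of all genes), with a median of -1.74; after scaling 35 were lower and 7 higher, with a median of -0.61. This list was spread out: Ndufb7 and Ndufa9, both of complex I, changed by -4.99 and -4.92, whereas Ndufa4 read 192.46 and 209.79 FPKM at MI and 378.48 and 189.38 at MII (0.41 ± 0.47, adjusted p = 0.44; 1.57 after scaling, adjusted p = 0.00035). In WT 62 of the 82 fell in this step, with a median of -1.63.

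Other housekeeping lists lay nearer to the median of all genes. Of 35 proteasome genes 25 fell (71.4%, median -1.55), of 61 translation factor genes 44 (72.1%, median -1.23) and of 18 genes for HSP70, HSP90, HSP60 and CCT chaperones 15 (83.3%, median -1.47). After scaling 17, 27 and 5 were lower and 7, 3 and 2 higher, with medians of -0.54, -0.29 and -0.36. Psmc4, an ATPase of the proteasome base, went from 122.39 and 142.05 to 6.66 and 5.91 FPKM (-4.19 ± 0.29, adjusted p = 3.6e-09), and Eif3d, a subunit of initiation factor eIF3, from 55.34 and 58.21 to 1.01 and 1.94 (-4.57 ± 0.35, adjusted p = 1.1e-08). Hspa8, a constitutive HSP70, went from 979.17 and 1124.86 to 93.4 and 77.58 FPKM (-3.61 ± 0.27, adjusted p = 8.7e-09), and it changed by -3.46 in WT too. Psma1, of the proteasome core, did not fall (116.33 and 126.03 at MI, 169.81 and 94.52 at MII; 0.07 ± 0.40, adjusted p = 0.89), and after scaling it was higher (1.22, adjusted p = 0.00057).

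**Figure D4:**
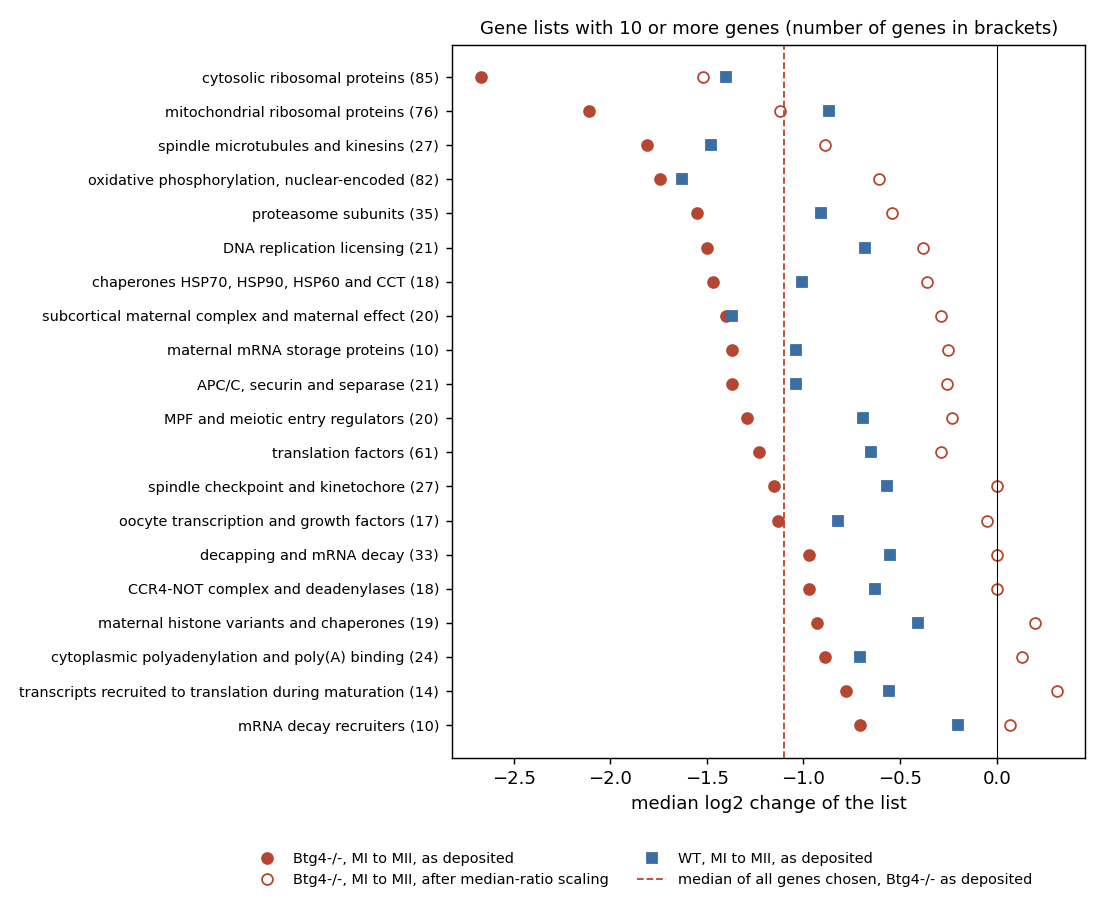
Median log2 change from MI to MII of each list with 10 or more genes: filled circles, Btg4-/- as deposited; open circles, Btg4-/- after median-ratio scaling; squares, WT; dashed line, the median of -1.10 of all 9820 genes. Cytosolic and mitochondrial ribosomal proteins lie furthest to the left (-2.67 and -2.11), and after scaling the medians of maternal histones (0.20), cytoplasmic polyadenylation (0.13), decay recruiters (0.07) and transcripts recruited to translation (0.31) lie above 0.

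Among cell cycle genes the transcripts of several kinases fell, and those of the CKS proteins and securin did not. Cdk1, the catalytic subunit of M-phase promoting factor (MPF), measured 33.2 and 38.53 FPKM at MI and 0.37 and 0.32 at MII in Btg4-/- (-4.77 ± 0.40, adjusted p = 2.5e-08). In WT it had reached 5.81 and 3.34 by MI and 0.1 and 0.04 at MII. The mitotic kinases Plk1 (194.78 and 204.09 to 20.79 and 32.81 FPKM; -2.88 ± 0.43, adjusted p = 1.8e-05) and Aurka (174.0 and 192.74 to 18.6 and 16.62; -3.31 ± 0.25, adjusted p = 8.5e-09) fell as well. Fzr1, the CDH1 activator of the anaphase-promoting complex (APC/C), went from 76.38 and 66.92 to 1.68 and 2.59 (-4.55 ± 0.39, adjusted p = 3e-08), and Birc5, the survivin subunit of the chromosomal passenger complex, from 1008.15 and 1122.82 to 155.14 and 155.56 (-2.77 ± 0.37, adjusted p = 4.6e-06).

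The CDK-binding proteins Cks1b and Cks2 did not fall. Cks2 read 380.85 and 453.89 FPKM at MI and 640.66 and 421.41 at MII (0.32 ± 0.43, adjusted p = 0.51), and Cks1b 269.07 and 299.69 at MI and 245.56 and 208.14 at MII (-0.33 ± 0.37, adjusted p = 0.44). After scaling both were higher (1.48 and 0.83). Pttg1, securin, which holds separase inactive until anaphase, was among the most abundant transcripts, with 3315.67 and 3737.6 FPKM at MI and 3432.01 and 2663.26 at MII (-0.22 ± 0.39, adjusted p = 0.63; 0.95 after scaling, adjusted p = 0.021). Ccnb1, cyclin B1, was at 438.43 and 488.63 FPKM at MI and 410.59 and 135.36 at MII, and Mos, the kinase that starts the MAP kinase pathway of MII arrest, at 460.35 and 457.33 and then 186.13 and 241.49; neither change passed (adjusted p = 0.20 and 0.058), and after scaling both stood above 0 (0.19 and 0.05). Over the lists, 12 of 20 genes of MPF and meiotic entry fell (median -1.29), 6 of 8 of the Mos pathway (-1.20), 15 of 21 of APC/C, securin and separase (-1.37), 16 of 27 of the spindle checkpoint and kinetochore (-1.15) and 24 of 27 of spindle microtubules and kinesins (-1.81). The shares of the MPF and checkpoint lists (60.0% and 59.3%) were below the 69.3% of all genes, and that of the last list (88.9%) above it. After scaling 5, 2, 7, 7 and 11 were lower and 3, 0, 1, 2 and 0 higher, with medians of -0.23, -0.07, -0.26, 0.00 and -0.89.

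In the lists of the decay machinery itself, of 5 to 33 genes each, the shares that fell lay below the 69.3% of all genes. In lists this small a few genes make that difference, and it was not tested. Of 18 genes for CCR4-NOT subunits and other deadenylases 10 fell (55.6%), with a median of -0.97, which was 0.00 after scaling with 3 lower and 1 higher. Cnot10, a subunit of the complex, fell most (12.78 and 11.22 FPKM to 0.88 and 0.87; -2.79 ± 0.20, adjusted p = 4.9e-09), and Cnot1, the scaffold, fell from 8.2 and 7.51 to 2.58 and 1.27 (-1.63 ± 0.30, adjusted p = 0.00015). The deadenylases Cnot7 (76.65 and 84.46 to 92.01 and 34.94), Cnot6 (3.41 and 3.1 to 5.6 and 2.17) and Cnot6l (29.07 and 27.72 to 44.67 and 15.35) overlapped between the stages and did not pass (adjusted p = 0.49, 0.84 and 0.89); after scaling they stood at 0.65, 0.92 and 1.0, of which Cnot6 was called (adjusted p = 0.037). Of 5 BTG and Tob adaptors 2 fell (40.0%), Btg2 (-1.04 ± 0.25) and Tob2 (-0.82 ± 0.29); after scaling Btg2 stood at -0.03 and Tob2 turned to 0.25, neither called. Btg4 itself had a value of -0.25 ± 0.32 (adjusted p = 0.48; 0.91 after scaling, adjusted p = 0.0027). Of 33 genes of decapping and exonucleolytic decay 21 fell (63.6%, median -0.97), and after scaling 10 were lower and 4 higher (median 0.00). Exosc5, of the RNA exosome, changed by -3.41 ± 0.27 and Dis3l, a cytoplasmic exosome nuclease, by -3.40 ± 0.25, while Lsm5 and Lsm7 of the LSM ring that aids decapping had values of 0.63 ± 0.59 and 0.01 ± 0.39, neither called; after scaling both were higher (1.78, adjusted p = 0.0052, and 1.16, adjusted p = 0.0023). Of 10 recruiters of decay factors to mRNA 6 fell (60.0%), with a median of -0.71, and after scaling none of the 10 was called in either direction (median 0.07). Nanos2 changed by -1.49 ± 0.29 (-0.41 after scaling, adjusted p = 0.25), and Pum2 had a value of -0.11 ± 0.60, which did not pass.

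Among factors that store mRNA and lengthen its tail, the largest falls were those of genes that fell in WT too. Cpeb1, which binds the cytoplasmic polyadenylation element (CPE), went from 141.84 and 147.69 FPKM to 17.75 and 10.7 (-3.30 ± 0.32, adjusted p = 1.4e-07), and Pabpc1l, the embryonic poly(A)-binding protein, from 81.58 and 77.04 to 8.18 and 9.02 (-3.07 ± 0.29, adjusted p = 8.9e-08). Both fell by a like amount in WT (-3.37 and -3.76), and the differences between the genotypes were 0.07 ± 0.45 and 0.70 ± 0.41, neither called. Of 24 genes of polyadenylation and poly(A) binding 14 fell (58.3%, median -0.89), and after scaling 4 were lower and 2 higher (median 0.13). Of 10 maternal mRNA storage proteins 8 fell (80.0%, median -1.37), and after scaling 1 was lower (median -0.25). Of 14 transcripts known to be recruited to translation during maturation 4 fell (28.6%, median -0.78), and after scaling 0 were lower and 2 higher (median 0.31). Those 4 were Plat, tissue plasminogen activator, whose mRNA is a classic case of tail lengthening (465.54 and 454.27 to 122.24 and 109.95 FPKM; -1.98 ± 0.41, adjusted p = 0.00038), Tex19.1, Bub1b and Tpx2. After scaling these calls were lost (-0.82, -0.45, -0.30 and -0.05, with adjusted p of 0.21, 0.40, 0.59 and 0.85).

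Maternal-effect and egg surface transcripts were mixed. Of 20 genes of the subcortical maternal complex and other maternal-effect genes 16 fell (80.0%, beside 69.3% of all genes), with a median of -1.40 against -1.37 in WT; after scaling 2 were lower and 1 higher, with a median of -0.29. Tle6, a member of that complex, went from 1265.32 and 1253.84 FPKM to 74.85 and 88.61 (-3.93 ± 0.51, adjusted p = 3.9e-06), and Dnmt3l, the cofactor of de novo DNA methylation, from 89.82 and 87.27 to 11.32 and 9.74 (-2.96 ± 0.30, adjusted p = 2e-07). In WT they changed by -4.45 and -3.04. Dppa3, the chromatin protein STELLA, did not fall, with 2194.99 and 2644.78 FPKM at MI and 2379.0 and 1880.83 at MII (-0.19 ± 0.43, adjusted p = 0.70; 0.98 after scaling, adjusted p = 0.033). Of 9 zona and egg surface genes 6 fell (66.7%), and after scaling 3 were lower and 2 higher. Zp1 of the zona went from 547.44 and 562.11 to 135.19 and 92.16 FPKM (-2.30 ± 0.38) and Folr4, the sperm receptor JUNO, from 207.88 and 226.27 to 28.89 and 33.6 (-2.76 ± 0.36). Oosp1, an oocyte-secreted protein, read 1075.37 and 1154.39 at MI and 1857.75 and 1295.43 at MII, with every MII library above every MI library, yet its change missed the threshold (0.48 ± 0.39, adjusted p = 0.28; 1.64 after scaling, adjusted p = 0.00033). Of 17 oocyte transcription and growth factor genes 11 fell (64.7%, median -1.13), of 19 maternal histones and chaperones 10 (52.6%, median -0.93) and of 21 DNA replication licensing genes 17 (81.0%, median -1.50). After scaling 3, 4 and 7 were lower and 1, 1 and 2 higher, with medians of -0.05, 0.20 and -0.38.

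The step was tested directly against that of WT, as the difference of the 2 changes. Of the 9820 genes 2749 fell further in Btg4-/- than in WT and 133 fell less or rose (26.0% and 1.34% of all genes), and after scaling 924 and 511 did (8.62% and 4.87%). The genes named for falling furthest beyond the WT step were already under 5 FPKM at MI in WT. Irf1, an interferon response factor, read 37.31 and 38.41 FPKM at MI and 0.9 and 0.71 at MII in Btg4-/-, and 0.94 and 0.86 at MI and 0.59 and 0.47 at MII in WT, so the difference of the changes was -4.12 ± 0.37 (adjusted p = 3.4e-06). Rpl3 (-4.03 ± 0.35, adjusted p = 2.5e-06), Ddit3, the stress factor CHOP (-4.02 ± 0.35, adjusted p = 2.5e-06), and Vamp8, a vesicle fusion protein (-4.06 ± 0.59, adjusted p = 0.0001), had the same form, with 84.58, 57.11 and 70.7 FPKM in the first MI library of Btg4-/- and 2.28, 2.31 and 2.24 in that of WT. By list, 40 of 85 cytosolic and 43 of 76 mitochondrial ribosomal protein genes fell further than in WT, and 1 and 3 less. The shares of all genes were 26.0% and 1.34%. These list counts are for the values as deposited and were not made after scaling. In WT the lists had already changed by medians of -3.97 and -3.16 from GV to MI.

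A second group was lost in WT between MI and MII and kept in the knockout. Calm2, 1 of the genes for calmodulin, measured 306.66 and 352.38 FPKM at MI and 474.51 and 207.04 at MII in Btg4-/-, so the stages overlapped (-0.07 ± 0.70, adjusted p = 0.94; 1.09 after scaling, adjusted p = 0.16). In WT it went from 128.15 and 106.74 to 7.35 and 3.21, and the difference of the changes was 4.25 ± 0.99 (adjusted p = 0.0039). Cox7c, a subunit of cytochrome c oxidase, read 292.67 and 298.57 at MI and 210.99 and 237.53 at MII in Btg4-/-, and 158.13 and 93.83 at MI and 6.17 and 2.49 at MII in WT (difference 4.22 ± 0.71, adjusted p = 0.00032). Ccdc23 read 34.24 and 45.87 and then 37.34 and 43.77 in Btg4-/-, and 26.11 and 23.7 and then 1.12 and 1.21 in WT (3.61 ± 0.49, adjusted p = 6e-05). After scaling the Btg4-/- change stood at 0.76 for Cox7c (adjusted p = 0.34) and at 1.16 for Ccdc23 (adjusted p = 0.027). Paip2, which binds and inhibits the poly(A)-binding protein, and Hmgb2, a chromatin protein of the HMG box family, differed by 4.02 ± 0.84 (adjusted p = 0.0017) and 3.65 ± 1.04 (adjusted p = 0.014), and both had 1 MII library far above the other. Hmgb2 no longer passed without MII library 1 of Btg4-/- or without MII library 2 of WT (largest adjusted p = 0.075). Calm2, Cox7c, Paip2, Hmgb2 and Ccdc23 were also kept in Cnot6l-/-, with changes of 0.17, -0.30, -0.34, 0.69 and -0.42 from MI to MII. Cd9, the egg membrane tetraspanin needed for fusion with sperm, and Timm9, a mitochondrial import chaperone, were chosen after their values were seen. Cd9 read 225.78 and 212.97 at MI and 247.8 and 158.79 at MII in Btg4-/- and fell from 98.47 and 65.3 to 9.81 and 2.49 FPKM in WT (difference 3.58 ± 0.69, adjusted p = 0.00088), and Timm9 differed by 3.11 ± 0.52 (adjusted p = 0.00031). After scaling the Btg4-/- change was 1.02 for Cd9 (adjusted p = 0.059) and 1.12 for Timm9 (adjusted p = 0.0052).

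The 12 genes that rose are of mixed kinds, and several are small RNAs or predicted loci. Hormad1, a protein of the meiotic chromosome axis, was at 0.07 and 0.61 FPKM at MI and at 18.5 and 8.26 at MII (3.36 ± 0.51, adjusted p = 2.1e-05). It had been at 7.51 and 18.2 at GV, so MI was the low point, and in WT the values were 18.05 and 19.2, then 3.09 and 3.33, then 5.81 and 3.59. Ggct, gamma-glutamylcyclotransferase, went from 109.58 and 112.26 to 351.75 and 203.01 FPKM (1.26 ± 0.43, adjusted p = 0.015), and both MII values lay between its GV values of 182.25 and 541.24. Its call was lost without MII library 1 and without either MI library. The other genes were Snora2b, Snora33, Mir1940, Gm12238, Gm8267, 1190007I07Rik, Ccdc122, Ccdc152, Pglyrp1 and Lyz2. Snora2b was listed at 0 in both MI libraries and at 108.08 and 33.03 at MII, and Lyz2 was at 0 in both MI libraries and in MII library 2 and read 2.08 in MII library 1. Only 5 genes rose without MII library 1 or without the first MI library.

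Set against the Cnot6l-/- step, the Btg4-/- step was steeper for some of the same genes. Of the 9820 genes 739 fell further in Btg4-/- and 12 less (6.89% and 0.358% of all genes), and after scaling 283 and 32 did (2.66% and 0.377%). Without single libraries the total of 751 shrank to 340 (without the second MI library of Btg4-/-), 377 (MII library 2 of Btg4-/-), 404 and 410 (either MI library of Cnot6l-/-) and 444 (MII library 1 of Cnot6l-/-). Ndufb7 measured 94.73 and 95.72 FPKM at MI and 29.13 and 28.54 at MII in Cnot6l-/-, a change of -1.69 beside -4.99 in Btg4-/- (difference -3.30 ± 0.33, adjusted p = 4.7e-05). Sod1 went from 1211.3 and 1132.73 to 243.45 and 296.18 in Cnot6l-/- (difference -2.98 ± 0.53, adjusted p = 0.0025), Tubb4b from 545.78 and 591.62 to 91.06 and 74.58 (-2.76 ± 0.39, adjusted p = 0.00056) and Cdk1 from 28.69 and 27.26 to 8.42 and 4.84 (-2.81 ± 0.56, adjusted p = 0.0058). At MI the genotypes were near each other for these 4 genes, and at MII the Cnot6l-/- libraries were the higher ones.

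The depth of the fall went with the base composition of the 3′ UTR, the stretch after the coding sequence that carries most signals for mRNA decay and tail lengthening. This was described over 3695 of the 4484 genes with at least 10 FPKM at MI, those whose 3′ UTR in the gencode vM1 annotation on mm9 ended within 50 bases of the end given in the deposited table. Over 4 nearly equal groups by GC content, the one with the lowest (10.6 to 38.2%) had a median change of -0.84, and the following groups -1.14, -1.66 and -2.27, the last at 49.5 to 67.1% GC. In these groups 42.6%, 66.6%, 88.8% and 94.6% of genes fell. After median-ratio scaling the medians were 0.25, -0.05, -0.58 and -1.18. The Spearman correlation across genes, which are not independent replicates, was -0.52 in Btg4-/-, -0.46 in Cnot6l-/- and -0.23 in WT. From GV to MI it was 0.07 in Btg4-/- and -0.01 in WT. The difference between the MII replicates also went with GC (0.62), and the correlation was -0.60 with MII library 1 and -0.38 with MII library 2 alone against MI. What part of the relation comes from library composition was not tested.

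**Figure D5:**
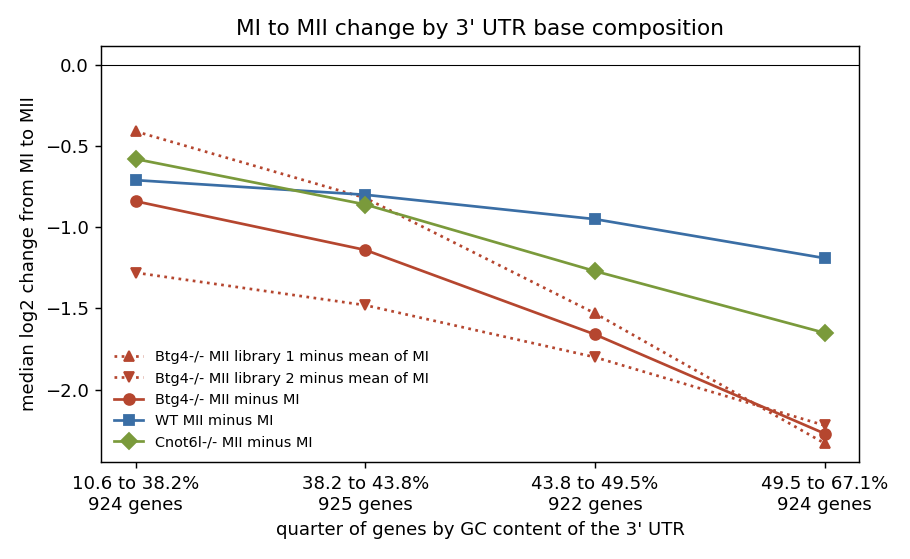
Median log2 change from MI to MII in 4 nearly equal groups of 3695 genes by GC content of the 3′ UTR (x axis), for Btg4-/- with both MII libraries (circles) and with each alone (triangles), WT (squares) and Cnot6l-/- (diamonds). The Btg4-/- median goes from -0.84 to -2.27 across the groups; the MII libraries are apart at low GC (-0.41 and -1.28) and together at high GC (-2.33 and -2.22).

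Elements known from cytoplasmic polyadenylation were rarer in the genes that fell most. The CPE was searched on the transcript strand as TTTTAT or TTTTAAT. It was present in the 3′ UTR of 15.2% of 112 genes lower by 4 or more, 33.6% of 712 genes lower by 2 to 3, 60.0% of 1307 genes lower by 1 to 2 and 70.4% of 459 genes above -0.5, beside 52.9% of all 3695 and 52.4% of the 17857 3′ UTRs of all genes listed. Short 3′ UTRs hold fewer motifs of any kind, and the median length was 280 bases in the first of these classes and 545 in the last. A window of the last 100 bases reduces this effect but does not remove it, since 3′ UTRs from 50 bases were taken. Rps27, Ndufb7 and Sod1, among the largest falls, have 3′ UTRs of only 54, 61 and 65 bases. In that window the shares were 7.14%, 12.5%, 23.6% and 31.6%, beside 17.4% of all 3′ UTRs. Genes with a CPE in that window had a smaller fall in every GC group, with medians of -0.80 with and -0.86 without it at the lowest GC, -1.0 and -1.18 in the next, -1.26 and -1.83 in the third, and -1.63 (130 genes) and -2.37 (794 genes) at the highest. The relation was not particular to Btg4-/-. The Spearman correlation of the change with the number of CPEs in that window was 0.21 in Btg4-/-, 0.2 in Cnot6l-/- and 0.17 in WT. With the number in the whole 3′ UTR it was 0.4, 0.33 and 0.27. The difference between the Btg4-/- MII replicates correlated with these numbers at -0.09 and -0.46. The Pumilio element TGTANATA was in 12.5% of the 112 genes and 21.6% of the 459, and the AU-rich element TATTTAT in 7.14% and 23.7%. A match of letters is a description and no evidence of binding.

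The ends of a few of these mRNAs show the contrast in GC content in letters, but not that in the CPE. The only CPE in these windows lies in H2afx, a gene that fell. Each line gives 30 bases of the mm9 genome on the transcript strand, in the last part of the 3′ UTR, that end with the poly(A) signal hexamer in capitals; in H2afx the capitals also take in a CPE that overlaps the hexamer. Ndufb7, Sod1, Gja4 and H2afx were among the 10 genes named for the largest falls, and Calm2, Cox7c, Dppa3 and Mphosph6 were kept.
Ndufb7: gccagcctgtggacctatcagtgaAATAAA
Sod1: agactcatctgctaccctcaaaccATTAAA
Gja4: tagttccactgtttatgatcctcaAATAAA
H2afx: ggggagatttaatgggctaaTTTTATTAAA
Calm2: ttccaagttgtatatttgttttccAATAAA
Cox7c: actcttatactagaaaaaattgtaAATAAA
Dppa3: acgttctaatttccagaaatttgtAATAAA
Mphosph6: gggtcatttttctaatgttctattAATAAA
Of the 24 bases before the hexamer, 14, 12, 9 and 9 were G or C in the genes that fell, in the order given, and 7, 5, 7 and 7 in those that were kept. Over the whole 3′ UTR the GC content was 49.2%, 44.6%, 54.8% and 59.6% in the former and 35.6%, 25.2%, 37.8% and 41.2% in the latter. The windows lie at chr8:86095474-86095503 (plus strand), chr16:90226528-90226557 (plus), chr4:126988681-126988710 (minus), chr9:44144102-44144131 (plus), chr17:87832772-87832801 (minus), chr13:86184436-86184465 (minus), chr6:122580248-122580277 (plus) and chr8:120315566-120315595 (minus). Of 22 genes considered, 12 gave such a window with AATAAA or ATTAAA in the last 60 bases, and 8 are shown. The groups overlap once the other windows are counted. Ccdc23, which was kept, has 9 G or C bases before the hexamer, as many as Gja4 and H2afx. Its 3′ UTR has 44.1% GC, and that of Rps27, which fell, has 42.6%.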

How the data were processed

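Total RNA of mouse oocytes was sequenced in 24 libraries, 2 for each of 4 stages in each of 3 genotypes. Per the submitters' processing notes the authors used CASAVA 1.8, TopHat2 2.0.11, Bowtie2 2.1.0 and Cufflinks 2.2.1 on mm9, and they deposited FPKM per gene. Strand handling, treatment of multiply mapped reads and the scaling between libraries are not described in what was used here. FPKM give no counts, so depth is unknown and no counting interval is given; the 5th percentile of non-zero FPKM times length in kb was 0.0907 and 0.0912 in the MI and 0.0367 and 0.0197 in the MII libraries of Btg4-/-.

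Values were tested as log2(FPKM + 1) with limma 3.58.1 in R 4.3.3 (moderated test with a trend, two-sided), with 1 mean per group over all 24 libraries and 12 residual degrees of freedom, for the 10884 genes whose mean reached 1 FPKM in any of the 12 groups. P-values were adjusted by Benjamini-Hochberg over these genes and called under 0.05. Fold changes on this scale understate changes of low genes. On simulated data with the Btg4-/- MII minus MI design, 1 of 50 genes changed by -0.5 was called, 20 of 50 at -1, 49 of 50 at -2 and 50 of 50 at -3, with 8 calls among 10684 unchanged genes. The changed genes were drawn from those above 10 FPKM at MI, and the simulated noise was independent between genes. Differences that run through a whole library were not simulated, so these rates need not hold for the real libraries. Genes were named by a rule, and the text gives a subset of them. Per direction the rule took up to 10 genes with the largest called change. These had at least 10 FPKM and libraries that did not overlap, and were no small RNA or predicted locus. Among the genes that rose only Hormad1 and Ggct met these conditions. Also taken were the 6 per direction with the largest difference from WT and the 6 most abundant with a change under 0.25. The 2 highest and 2 lowest of each list, Btg4 and Cnot6l completed the rule. Other genes serve as examples chosen after their values were seen. The 9820 genes and the 28 lists were chosen with earlier results of these data known. Columns of the MI libraries carry the numbers 2 and 3 while the titles carry 1 and 2, so MI columns were matched to the group only. Alternatives were another pseudocount, a higher and no minimum, median-ratio scaling, fewer libraries in the fit, a replicate block and each library left out. Python 3.11.15, numpy 2.4.6, pandas 2.3.3 and matplotlib 3.10.9 were used for summaries. The single-library tables were not used here.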

Additional observations from a re-analysis of the deposited data

Results flagged for a closer look

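For 12 genes the change from MI to MII differed between Btg4-/- and WT oocytes by the test of the difference itself (limma, interaction of genotype and stage, adjusted over all genes), and they are the 6 named per direction for its size. The fall in Btg4-/- was the larger for Rpl24 (difference -4.13 ± 0.48), Irf1 (-4.12 ± 0.37), Vamp8 (-4.06 ± 0.59), Rpl3 (-4.03 ± 0.35), Ddit3 (-4.02 ± 0.35) and Cstb (-4.0 ± 0.60). Cstb, the protease inhibitor cystatin B, stood at 18.58 and 29.33 FPKM at MI and 0.91 and 0.26 at MII in Btg4-/-, and WT was at 0.0 and 0.17 by MI.

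The difference had the other sign for Spink2 (4.93 ± 0.93), Calm2 (4.25 ± 0.99), Cox7c (4.22 ± 0.71), Paip2 (4.02 ± 0.84), Hmgb2 (3.65 ± 1.04) and Ccdc23 (3.61 ± 0.49). Spink2, a serine protease inhibitor, was low in Btg4-/- throughout this step (0.45 and 1.22 FPKM at MI, 3.3 and 2.89 at MII), while WT went from 26.48 and 12.31 to 0.34 and 0.53. Under 13 alternatives each, 11 of the 12 genes passed the threshold every time, and Hmgb2 passed in 11 of 13.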

How the results depend on the processing

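The 7120 genes that fell became 4502 with a minimum of 5 FPKM and 3175 with median-ratio scaling, and 5600 to 7614 when single libraries were left out. The 12 genes that rose became 7 with no minimum and 501 with scaling, and 5 to 16 with libraries left out. The median change of -1.10 was -1.50 with a pseudocount of 0.1, -1.35 with a minimum of 5 FPKM, -0.25 with scaling and -1.29 to -0.95 with libraries left out. The 2882 genes whose step differed from WT became 1671 with a pseudocount of 0.1, 1795 with a minimum of 5 FPKM, 1435 with scaling and 1997 to 2628 with libraries left out. The 751 that differed from Cnot6l-/- became 315 with scaling and 340 to 551 with libraries left out. Of the 4921 genes lost earlier in WT 3699 fell, and the set itself changed with the setting. The count was 1263 of 2036 with scaling and 1764 of 2156 with a WT fall of at least 2. With libraries left out it was 3121 to 3992, in sets of 4071 to 5568 genes. Of the genes on the lists 502 fell, 265 after scaling and 406 to 521 with libraries left out. The sum at MII was 0.445 of that at MI, and 0.373 to 0.516 with libraries left out. Of the 130 named genes, 39 changed sign after scaling, and 23 of these were called before or after it: Pttg1 (0.95), Dppa3 (0.98), Rfpl4 (1.14), Tob2 (0.25), Btg4 (0.91), Paip2b (0.91), Pabpc1 (0.70), Orc6 (0.98), Elavl1 (0.11), Obox5 (0.75), Cks1b (0.83), Fbxo43 (0.04), Aurkc (0.93), Rpl22 (0.87), Mrpl32 (1.10), Psmc6 (1.13), Eif5b (1.0), Npm1 (1.02), Hsp90b1 (0.61), Hsp90aa1 (0.82), Klf17 (0.04), Gadd45a (0.10) and Egr1 (0.11). By its construction the scaling removes a shift common to the reference genes; for the other settings the cause was not tested. A fit with a replicate block gave 7808 genes lower and 17 higher, a median of -1.10, and the same call for all 130 named genes. The samples were not treated as paired, since the MI and MII columns have only number 2 in common; taking the columns in order, the difference between replicates at MII had a correlation across genes with that at MI of 0.0 in Btg4-/-, 0.04 in WT and 0.12 in Cnot6l-/-. In Btg4-/- it was -0.18 with GV and 0.75 with the zygotes, which are not compared here. The depth is unknown, so low values carry an error that cannot be given.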
